A study of Mus musculus with 12 samples.

Results

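The genes described here are 10 members of the Hippo pathway, measured by RNA-seq in cultured mouse tumour cells with and without Mll3. They were taken by name for their roles, with earlier results of these data known: the coactivator genes Yap1 (YAP) and Wwtr1 (TAZ), the transcription factor genes Tead1, Tead2, Tead3 and Tead4, the kinase genes Lats1 and Lats2, and the angiomotin genes Amotl1 and Amotl2. All 10 had a row in a table of 17718 genes, and all 10 passed the filter on low counts that kept 13013 genes for testing. The cells were CT26, a colon carcinoma line of BALB/c mice, maintained in RPMI-1640 with serum, and no drug treatment is labelled for either group. The control group was labelled WT (3 libraries, replicates 1 to 3) and the other Mll3KO (3 libraries, which the table calls sg1, sg2 and sg3). Mll3, now called Kmt2c, methylates histone H3 at enhancers, and the series asks how its mutation relates to the response to immunotherapy. How the knock-out was made, and whether the 3 libraries come from 1 line, from several, or from separate cultures, is not given in the sources used here. A difference between lines and the loss of Mll3 therefore cannot be told apart. The other 6 samples of the series, CUT&Tag and single-cell libraries, were not analysed here.

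In the Hippo pathway, the kinases MST1 and MST2 activate LATS1 and LATS2, which phosphorylate YAP and TAZ and hold them in the cytoplasm bound to 14-3-3 proteins or send them for degradation. Unphosphorylated YAP and TAZ enter the nucleus, where they bind TEAD proteins and activate genes of growth and adhesion. Angiomotins bind YAP and TAZ directly and also promote LATS activity. Lats2 and Amotl2 are themselves known as targets of YAP and TEAD, which gives the pathway a negative feedback. The pathway is regulated largely by protein phosphorylation and location, which counts of transcripts do not measure. In intestinal epithelium it is known for its part in regeneration after injury and in colorectal tumours.

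Libraries held 9559658 to 13406013 counts, and levels are given as CPM, counts scaled to the library total with TMM factors, on which 1 count equalled 0.0786 to 0.108. The targeted gene, Kmt2c, had 24.9, 26.2 and 25.0 CPM in wild-type and 16.0, 11.2 and 14.8 CPM in the knock-out, so its transcript was lower but present in every knock-out library. Its log2 fold change was -0.87 (SE 0.129, edgeR adjusted p = 4.33e-08). Markers of epithelial, fibroblast, endothelial and immune cells were read as lists. Of 11 epithelial markers 4 were tested and all 4 rose, Krt18 and Krt20 among them, with a summed level of 54.4 to 56.7 CPM in wild-type and 170 to 182 CPM in the knock-out libraries; Epcam and Cdh1 were not analysed here. Of 8 fibroblast markers 5 of the 6 tested rose, from a summed 1038 to 1055 CPM up to 1539 to 1575 CPM. The endothelial markers summed to at most 3.11 CPM and the immune markers to at most 23.5 CPM in any library, and the pan-leukocyte gene Ptprc had 1 to 4 counts. Single markers moved within these sums: Lyz2 rose from 0.553 ± 0.307 to 8.80 ± 0.535 CPM, Csf1r fell from 15.2 ± 1.02 to 6.72 ± 1.55 CPM and Pecam1 rose from 0.540 ± 0.467 to 2.19 ± 0.373 CPM (SD, n = 3; edgeR adjusted p = 1.37e-15, 2.28e-08 and 0.000251). The part of these differences in the results below was not tested.

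In knock-out cells 9 of the 10 members passed the test: Yap1, Tead2 and Lats2 (3 genes) rose, and 6 fell. With chromosome medians removed 2 rose and 8 fell, and with upper-quartile scaling 3 rose and 4 fell. This count reads against a wide background, since 66.2% of all genes tested were called, 33.1% higher and 33.2% lower (edgeR quasi-likelihood test, Benjamini-Hochberg adjusted p under 0.05). The median log2 fold change of the members was -0.28, beside 0.02 over all genes tested, and their median absolute log2 fold change of 0.36 was below the 0.41 of all genes. The genotypes did not overlap for 9 of the 10 members, where 68.7% of all genes tested were without overlap. Tead3 was the member that overlapped. Tested against a 1.5-fold change, 2 members passed, Lats1 and Wwtr1, beside 20.0% of all genes. In a bulk library, fewer cells that express a gene and less of its RNA per cell cannot be told apart.

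**Figure D1:**
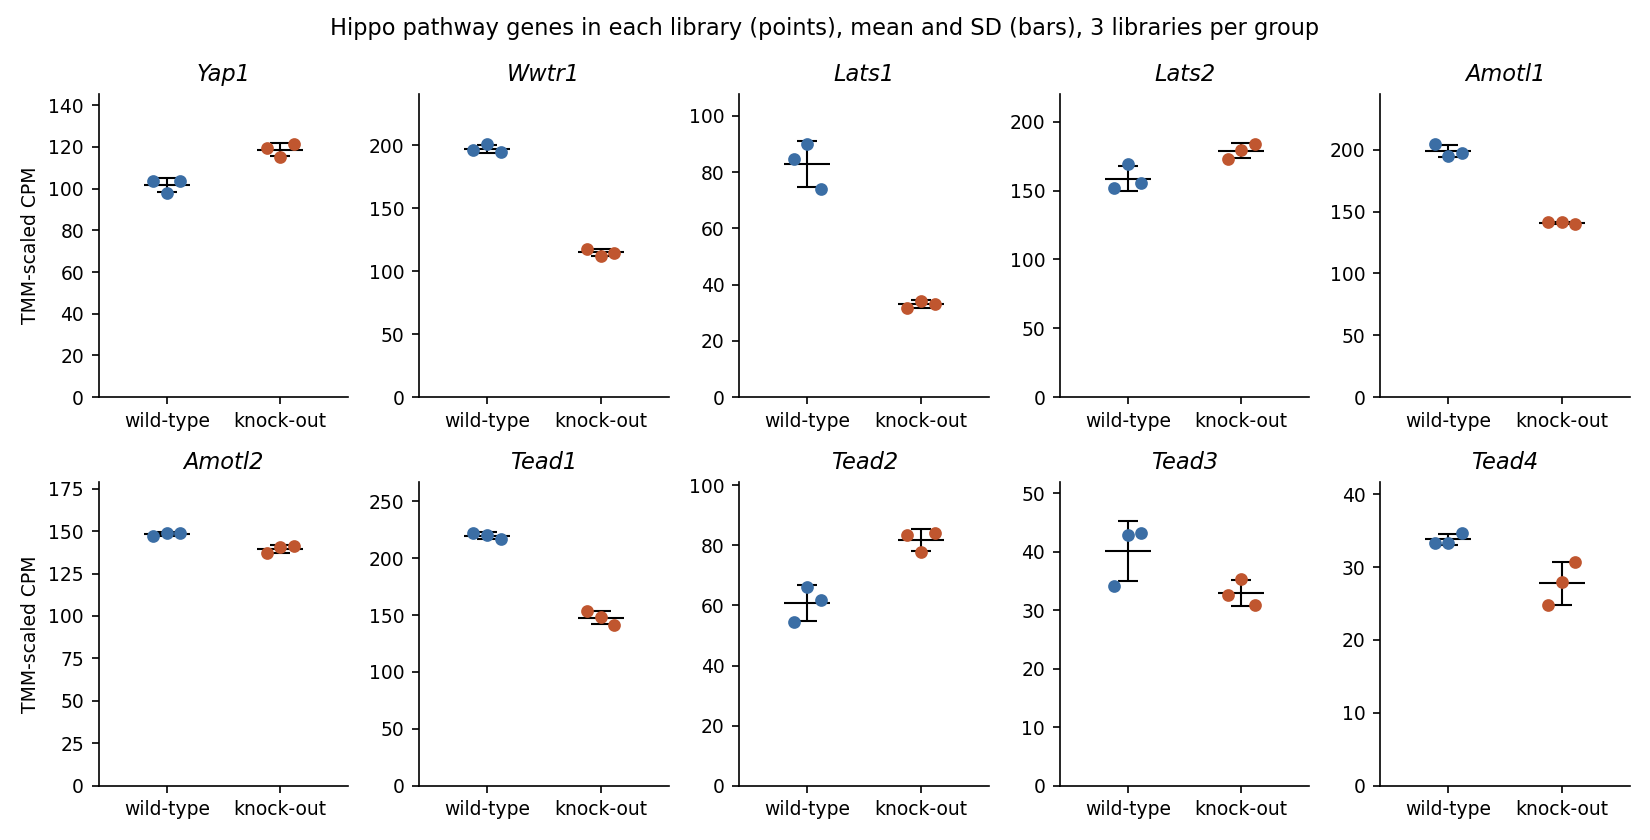
Level of each of the 10 Hippo pathway genes in every library (points, TMM-scaled CPM on the vertical axis), with the mean and SD of 3 libraries per genotype. Lats1, Wwtr1, Tead1 and Amotl1 show clear gaps with the knock-out lower, Tead2 and Yap1 smaller gaps with the knock-out higher, and Tead3 overlaps.

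The coactivators moved in opposite directions. Wwtr1, which encodes TAZ, stood at 196, 201 and 194 CPM in wild-type cells, against 118, 112 and 115 CPM after knock-out. Every knock-out library was far below every wild-type library. Wwtr1 fell 1.71-fold (log2 fold change -0.78, SE 0.0478, edgeR adjusted p = 3.39e-21), with 3 libraries in each group here and throughout. Yap1, its paralogue, stood at 103, 97.9 and 104 CPM in wild-type, against 120, 115 and 121 CPM in knock-out cells. These groups were close but did not overlap. The rise was 1.17-fold (log2 fold change 0.22, SE 0.0542, edgeR adjusted p = 0.000321). The Wwtr1 value ranged from -0.81 to -0.62 and that of Yap1 from 0.18 to 0.38 over all alternatives in processing, and both kept their direction in each.

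Because the ratio of counts of a pair of genes inside 1 library does not depend on how libraries are scaled, it was also read for each family. The log2 ratio of Yap1 to Wwtr1 counts was -0.92, -1.04 and -0.91 in wild-type and 0.02, 0.04 and 0.08 in the knock-out. It differed by 1.00 (SE 0.0448) with no overlap, which is a doubling of Yap1 relative to Wwtr1. An exact two-sided permutation test of 3 against 3 libraries gave p = 0.1, the smallest it can give, and the same value adjusted over the 7 ratios read. Any pair without overlap gives this value. The pairs were chosen after the values of their genes were seen, so p describes each ratio and is not a separate test. With chromosome medians removed from both genes the difference was 0.81. The ratio itself compares genes of different length, so only its change between genotypes is read.

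Promoter sequences of the coactivators are shown because both carry, in the reference genome, the core letters that TEAD proteins bind. They run from 250 bases before to 50 after an annotated start on the gene's own strand (RefSeq, GRCm38.p6, the assembly of mm10), with the letters GGAATG or their reverse complement CATTCC in capitals.
Wwtr1, chr3:57575861-57576160, minus strand: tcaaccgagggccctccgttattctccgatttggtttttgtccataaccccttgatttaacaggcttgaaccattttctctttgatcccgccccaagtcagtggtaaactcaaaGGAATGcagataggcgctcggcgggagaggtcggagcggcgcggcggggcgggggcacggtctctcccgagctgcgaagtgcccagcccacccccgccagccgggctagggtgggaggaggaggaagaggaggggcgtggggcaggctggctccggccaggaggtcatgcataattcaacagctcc
Yap1, chr9:8004547-8004846, minus strand: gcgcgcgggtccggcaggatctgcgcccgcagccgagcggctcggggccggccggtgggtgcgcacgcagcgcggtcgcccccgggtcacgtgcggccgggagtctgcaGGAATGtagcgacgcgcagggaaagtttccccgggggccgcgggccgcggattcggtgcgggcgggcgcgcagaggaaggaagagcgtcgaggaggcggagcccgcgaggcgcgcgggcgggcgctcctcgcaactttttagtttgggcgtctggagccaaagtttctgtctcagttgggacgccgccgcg
The first base of the match lies at -136 in Wwtr1 and at -141 in Yap1, counted from the annotated start of the window shown. Wwtr1 has another annotated start, with window chr3:57575827-57576126, from which the same letters begin at -170. The promoter table matched 8 of the 10 members (Tead1 and Tead4 did not match), and 5 of these 8 held the letters in at least 1 window: Yap1, Wwtr1, Tead3, Lats2 and Amotl2. The share was 16.6% among all 27025 genes with a promoter window, and 14.7% among all 32851 windows of 300 bases. A match describes letters and not a bound site, and genes with a match included members that rose, members that fell and 1 that was not called.

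The TEAD genes, which encode the DNA-binding partners of YAP and TAZ, did not change alike. Tead1 stood at 222, 220 and 217 CPM in wild-type, against 153, 148 and 142 CPM in knock-out cells. It was 1.49-fold lower with a wide gap between the genotypes (log2 fold change -0.57, SE 0.0456, edgeR adjusted p = 1.03e-16). Tead2 went the other way, from 54.5, 66.2 and 62.0 CPM to 83.4, 77.7 and 84.3 CPM. All 3 knock-out libraries were above all 3 wild-type libraries (log2 fold change 0.43, SE 0.0691, edgeR adjusted p = 2.54e-07).

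Tead3 and Tead4 were counted 253 to 435 times per library and differed less than Tead1 and Tead2. Tead3 stood at 34.2, 42.8 and 43.2 CPM in wild-type, against 32.6, 35.3 and 30.8 CPM in knock-out cells. Wild-type replicate 1 lay within the range of the knock-out libraries. Its log2 fold change was -0.27 (SE 0.0947, edgeR adjusted p = 0.00941). Tead4 stood at 33.3, 33.3 and 34.7 CPM in wild-type, against 24.8, 27.9 and 30.7 CPM in knock-out cells. The groups did not overlap, but the knock-out libraries spread widely (log2 fold change -0.28, SE 0.0989, edgeR adjusted p = 0.0109). Both calls were lost with upper-quartile scaling (-0.12 each, edgeR adjusted p = 0.280 and 0.267) and with library size alone (-0.15 and -0.16, edgeR adjusted p = 0.153 and 0.151). The Tead3 call was also lost without wild-type replicate 2 (-0.23, edgeR adjusted p = 0.0520) or without knock-out library sg3 (-0.24, edgeR adjusted p = 0.0531). Tead4 was lost without knock-out library sg1 (-0.22, edgeR adjusted p = 0.0758).

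Within libraries, the log2 ratio of Tead2 to Tead1 counts was -2.03, -1.73 and -1.81 in wild-type and -0.88, -0.93 and -0.75 in the knock-out. It was higher in every knock-out library, by 1.00 on average (SE 0.104). Against Tead3 and Tead4, Tead2 was higher by 0.71 (SE 0.103) and 0.72 (SE 0.124) on the same log2 scale. The genotypes did not overlap in any of these 3 ratios, so each had an exact two-sided permutation p of 0.1, the smallest possible.

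The LATS kinase genes were split more widely than any other pair compared here. Lats1 had the largest change of the 10 genes, from 84.7, 89.9 and 74.0 CPM in wild-type to 31.6, 34.3 and 33.2 CPM in knock-out cells. The lowest wild-type library was above 70 CPM and the highest knock-out library below 35 CPM. The level was 2.51-fold lower (log2 fold change -1.33, SE 0.0778, edgeR adjusted p = 4.44e-22), and 91.4% of all genes tested changed by less or as much. Lats2 stood at 152, 169 and 155 CPM in wild-type, against 173, 180 and 184 CPM in knock-out cells. The highest wild-type library was just below the lowest knock-out library. Lats2 rose by 1.13-fold (log2 fold change 0.17, SE 0.0479, edgeR adjusted p = 0.00123), and this direction turned to -0.17 (edgeR adjusted p = 0.00166) when the median change of each chromosome was removed.

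The log2 ratio of Lats2 to Lats1 counts was 0.84, 0.91 and 1.07 in wild-type and 2.45, 2.39 and 2.47 in the knock-out. The difference was 1.50 (SE 0.0726, exact two-sided permutation p = 0.1), the largest among the 7 ratios read. With chromosome medians removed from both genes it was 1.51. Whether counting used strand is not stated, and in the RefSeq annotation some members overlap other genes. Wwtr1 and Amotl1 each overlap 1, by 2520 and 2827 bases, and Lats2 overlaps 2. Lats1 overlaps the neighbouring gene Pcmt1 by 138 bases. Pcmt1, a protein repair methyltransferase gene, went the other way, from 62.0 ± 5.87 to 76.8 ± 1.17 CPM (SD, n = 3; log2 fold change 0.30, SE 0.0686, edgeR adjusted p = 0.000116).

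The promoters of the LATS genes are shown as a contrast: that of Lats2 holds the TEAD core letters (capitals) beginning at +5, and that of Lats1 holds none in this window.
Lats2, chr14:57746074-57746373, minus strand: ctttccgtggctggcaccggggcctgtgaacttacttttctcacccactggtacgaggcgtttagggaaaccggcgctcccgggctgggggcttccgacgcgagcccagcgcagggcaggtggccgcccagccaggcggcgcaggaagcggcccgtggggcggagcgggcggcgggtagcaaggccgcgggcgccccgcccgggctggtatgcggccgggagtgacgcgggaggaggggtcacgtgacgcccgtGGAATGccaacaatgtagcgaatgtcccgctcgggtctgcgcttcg
Lats1, chr10:7680959-7681258, plus strand: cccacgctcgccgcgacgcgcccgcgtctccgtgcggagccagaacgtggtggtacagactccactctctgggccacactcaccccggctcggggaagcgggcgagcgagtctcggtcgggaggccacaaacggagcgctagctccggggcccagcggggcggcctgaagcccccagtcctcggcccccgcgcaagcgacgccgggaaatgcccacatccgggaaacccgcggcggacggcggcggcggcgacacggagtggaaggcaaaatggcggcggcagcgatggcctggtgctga
Lats2 has another annotated start, chr14:57734369-57734668, whose window holds no match. Absence of these letters says nothing of TEAD binding elsewhere at Lats1.

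**Figure D2:**
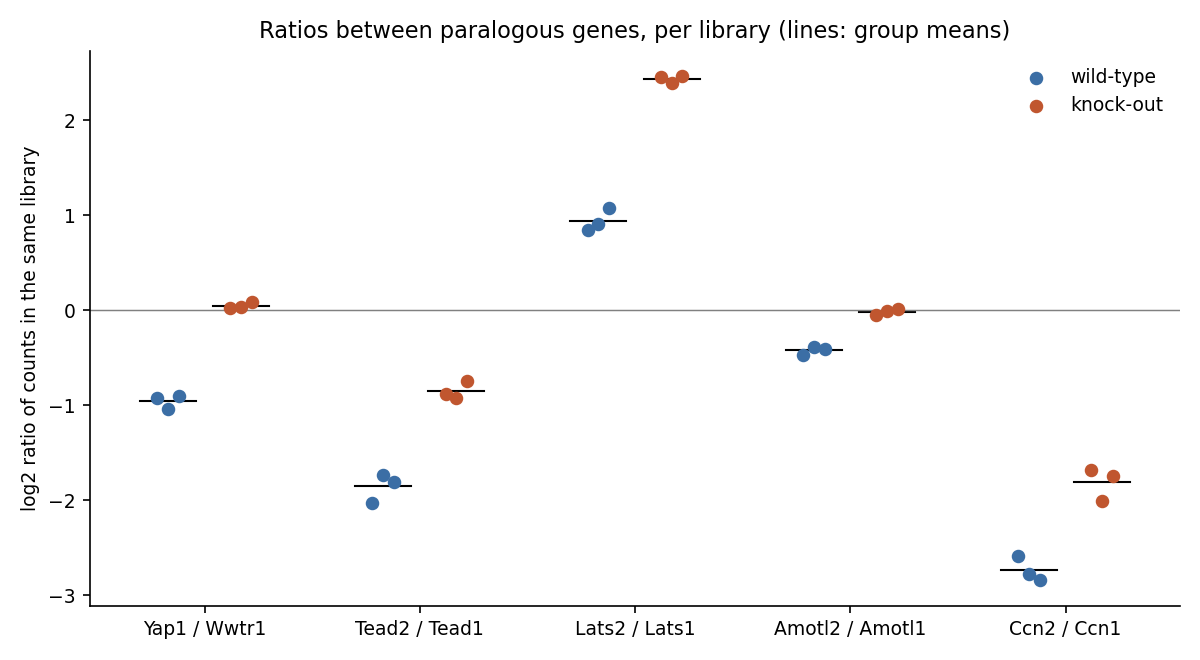
Log2 ratio of the counts of a pair of related genes in the same library (vertical axis), for 3 wild-type and 3 knock-out libraries, with lines at the group means. In all 5 pairs the knock-out libraries lie above the wild-type libraries without overlap, with the widest gap for Lats2 to Lats1. Each ratio has the gene with the higher log2 fold change on top, and this order sets the shared direction.

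The angiomotin genes encode scaffold proteins that hold YAP and TAZ at cell junctions and actin. Amotl1 stood at 204, 194 and 198 CPM in wild-type, against 142, 141 and 140 CPM in knock-out cells. The knock-out libraries were nearly equal to each other and all below wild-type. Amotl1 was 1.41-fold lower (log2 fold change -0.50, SE 0.0461, edgeR adjusted p = 3.43e-14). Amotl2 had 147, 149 and 149 CPM in wild-type and 137, 140 and 141 CPM in knock-out cells. Its log2 fold change of -0.09 (SE 0.0485, edgeR adjusted p = 0.109) did not pass the threshold, although the groups did not overlap, and its sign turned with library size alone (0.03) and upper-quartile scaling (0.07). With chromosome medians removed it passed (-0.13, edgeR adjusted p = 0.0155). Amot, the third angiomotin gene, rose from 24.1, 23.9 and 25.2 CPM to 31.7, 28.6 and 31.0 CPM (log2 fold change 0.32, SE 0.103, edgeR adjusted p = 0.00548).

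The log2 ratio of Amotl2 to Amotl1 counts was -0.47, -0.39 and -0.41 in wild-type and -0.05, -0.01 and 0.01 in the knock-out. It rose by 0.41 (SE 0.0324, exact two-sided permutation p = 0.1). Amotl2 is shown because its promoter window holds the TEAD core in the orientation CATTCC, beginning at -65 from the annotated start of that window. The window lies inside the interval of the gene (102717091 to 102733418), so that start is not the first base of the interval.
Amotl2, chr9:102717554-102717853, plus strand: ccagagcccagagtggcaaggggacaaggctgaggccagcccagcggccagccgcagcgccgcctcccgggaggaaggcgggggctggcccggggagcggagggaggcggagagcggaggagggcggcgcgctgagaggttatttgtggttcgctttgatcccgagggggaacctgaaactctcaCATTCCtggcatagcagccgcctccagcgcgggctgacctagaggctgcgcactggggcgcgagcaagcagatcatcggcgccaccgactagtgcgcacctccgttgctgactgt

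Median log2 fold changes by chromosome ran from -0.35 on chromosome 8 to 0.36 on chromosome 10 among the chromosomes numbered 1 to 19 and X, and each member was therefore set beside the tested genes within 5 Mb of it. Lats1 (chromosome 10, 7681200 to 7716461) had 25 such neighbours with a median log2 fold change of 0.30, and 0 of the 25 was as low as Lats1. Lats2 (chromosome 14, 57689662 to 57746212) had 88 neighbours with a median of 0.38, above its own 0.17. Yap1 (chromosome 9, 7931999 to 8004638) had 19 neighbours with a median of 0.22, the same as its own value, and 10 of the 19 lay below it.

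Wwtr1 (chromosome 3, 57455644 to 57575910) had 31 neighbours with a median of -0.35, and 7 of them fell further than Wwtr1. Tead1 (chromosome 7, 112679356 to 112906784) had 38 neighbours with a median of -0.10, of which 6 were lower than Tead1. Tead2, on the same chromosome (45215792 to 45233468), had 112 neighbours with a median of 0.19. Amotl1 (chromosome 9, 14541966 to 14662974) had 22 neighbours with a median of -0.18. Amotl2, also on chromosome 9 (102717091 to 102733418), had 70 neighbours with a median of 0.18, Tead3 (chromosome 17, 28331671 to 28350805) 172 with a median of 0.07, and Tead4 (chromosome 6, 128227143 to 128300813) 69 with a median of 0.02. Copy number was not measured in these files, and its part in these values was not tested.

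**Figure D3:**
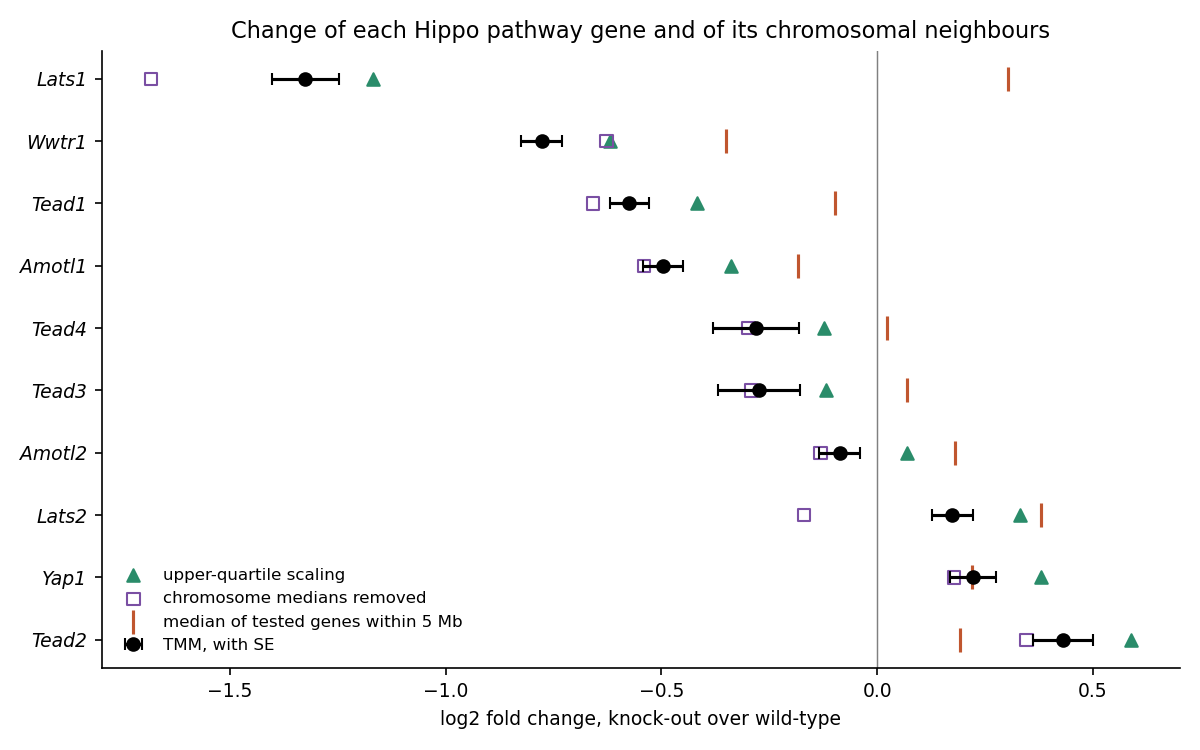
Log2 fold change (knock-out over wild-type, horizontal axis) of each Hippo pathway gene with its SE (circles), with upper-quartile scaling (triangles), with chromosome medians removed (open squares), and the median of the tested genes within 5 Mb (vertical ticks). Lats1 lies far to the left of its neighbours, Yap1 lies on its neighbours' median, and Lats2 changes sign when chromosome medians are removed.

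Transcripts known to respond to YAP, TAZ and TEAD were read from a list of 22 target genes known from human tumours, which shares Lats2 and Amotl2 with the members. Of its 16 tested genes 8 rose, 7 fell and 1 did not pass the threshold, where 33.1% of all genes tested rose and 33.2% fell. The list was split by direction, with a median log2 fold change of 0.04 beside 0.02 over all genes. With chromosome medians removed, 5 rose and 9 fell. The targets most used as reporters of the pathway disagreed with each other. Ankrd1, an ankyrin repeat protein gene induced by YAP, fell from 303, 289 and 273 CPM to 80.8, 72.4 and 72.0 CPM (log2 fold change -1.94, SE 0.0509, edgeR adjusted p = 2.59e-38). Ccn1 (CYR61), a secreted matricellular protein gene, fell from 273, 257 and 294 CPM to 179, 200 and 171 CPM (log2 fold change -0.58, SE 0.0495). Ccn2 (CTGF), its close relative, rose from 45.4, 37.5 and 40.9 CPM to 55.7, 49.6 and 51.0 CPM (log2 fold change 0.33, SE 0.0826, edgeR adjusted p = 0.00043).

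None of these 3 genes overlapped between genotypes, which also held for all 16 tested targets and for 68.7% of all genes tested. The rise of Ccn2, on chromosome 10, became -0.03 (edgeR adjusted p = 0.783) with chromosome medians removed. The log2 ratio of Ccn2 to Ccn1 counts was -2.59, -2.78 and -2.85 in wild-type and -1.69, -2.01 and -1.75 in the knock-out, a difference of 0.92 (SE 0.125, exact two-sided permutation p = 0.1) that was 0.41 with chromosome medians removed. Ankrd1 and Ccn1 are shown because both fell and both hold the TEAD core near the start, at -210 and -123 in Ankrd1 and at -103 in Ccn1.
Ankrd1, chr19:36119795-36120094, minus strand: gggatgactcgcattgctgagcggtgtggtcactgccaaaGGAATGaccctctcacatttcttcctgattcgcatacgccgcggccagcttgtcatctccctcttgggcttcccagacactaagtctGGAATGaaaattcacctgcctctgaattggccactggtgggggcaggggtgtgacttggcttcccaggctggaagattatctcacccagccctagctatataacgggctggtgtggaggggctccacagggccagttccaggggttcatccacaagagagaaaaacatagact
Ccn1, chr3:145649936-145650235, minus strand: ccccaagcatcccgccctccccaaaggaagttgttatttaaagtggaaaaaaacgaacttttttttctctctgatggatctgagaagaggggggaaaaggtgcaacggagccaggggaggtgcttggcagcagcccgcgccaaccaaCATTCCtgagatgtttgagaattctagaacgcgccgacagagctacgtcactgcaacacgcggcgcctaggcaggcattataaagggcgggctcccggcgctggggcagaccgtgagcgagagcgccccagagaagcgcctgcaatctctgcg
Of the 15 genes of the list with a promoter window, 7 held the letters, where the share was 16.6% among all genes with a window. Lats2 and Amotl2 were also counted among the members. Of these 7, Ankrd1, Ccn1 and Axl fell, Lats2, Crim1 and Ptpn14 rose and Amotl2 was not called.

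The largest change among the targets was that of Gadd45a, a stress-induced growth arrest gene that many pathways regulate, from 449, 446 and 477 CPM to 69.8, 75.3 and 71.2 CPM (log2 fold change -2.66, SE 0.0465). F3, which encodes tissue factor, fell from 53.8, 61.3 and 57.4 CPM to 30.1, 32.8 and 30.6 CPM (log2 fold change -0.88, SE 0.0838). Myof (myoferlin) and Axl, a receptor tyrosine kinase gene, fell by 0.44 and 0.38 on the log2 scale. Nuak2, an AMPK-related kinase gene, was low, at 5.42, 2.96 and 4.31 CPM in wild-type and 2.15, 2.25 and 1.83 CPM in knock-out cells (log2 fold change -1.04, SE 0.312, edgeR adjusted p = 0.00304), and its call was lost without wild-type replicate 1 (-0.80, edgeR adjusted p = 0.0530).

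In the other direction, Ccdc80, a secreted matrix protein gene, rose from 8.17, 8.77 and 7.12 CPM to 22.7, 22.4 and 22.3 CPM (log2 fold change 1.48, SE 0.144). The remaining rises were smaller than 0.5 on the log2 scale: Asap1, an ARF GTPase-activating protein gene, with 0.44, Crim1 with 0.33, Ptpn14, a phosphatase gene whose product binds YAP, with 0.31, Dock5 with 0.25 and Arhgef17 with 0.24. The Dock5 rise became -0.10 (edgeR adjusted p = 0.207) with chromosome medians removed and was lost without knock-out library sg1 (0.16, edgeR adjusted p = 0.0527). Of the 6 list genes without a test, Tgfb2 was below the filter with 1 to 10 counts per library, and Igfbp3, Fjx1, Foxf2, Nt5e and Rbms3 were not analysed here.

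**Figure D4:**
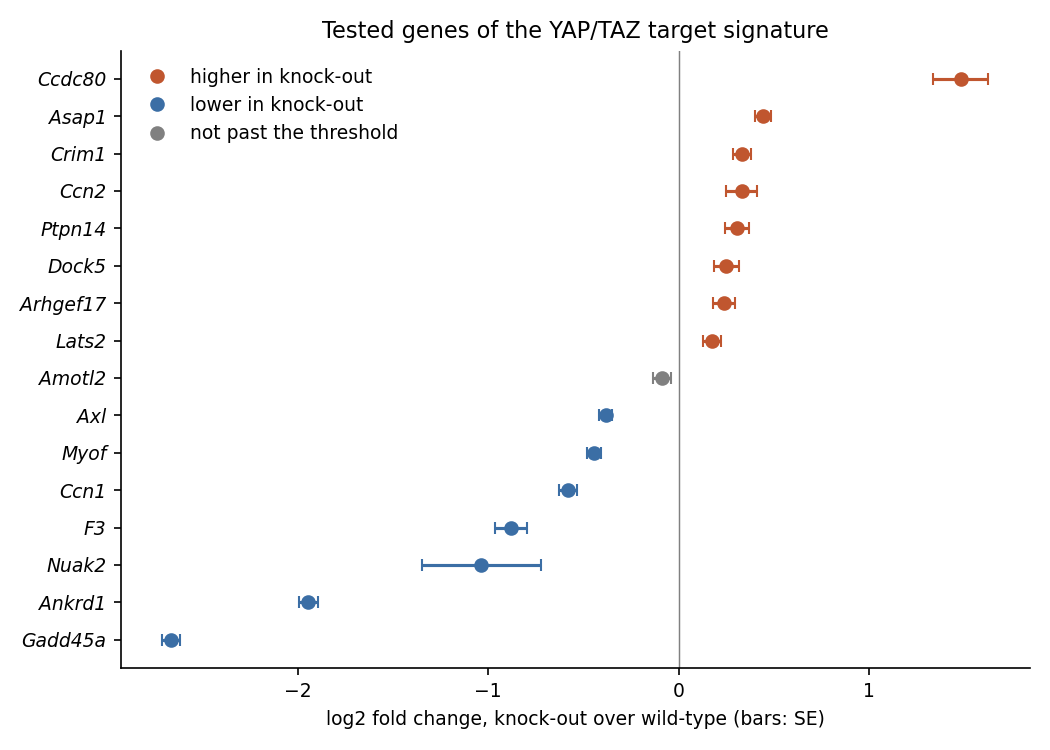
Log2 fold change (knock-out over wild-type, horizontal axis, bars SE) of the 16 tested genes of the YAP/TAZ target list. The 7 genes that fell reach -2.66 for Gadd45a and -1.94 for Ankrd1, while 7 of the 8 that rose lie under 0.5 and Ccdc80 stands at 1.48.

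Upstream of LATS, the kinase cassette and its activators were read as a list of 24 genes, of which 23 were tested. Of these 7 rose and 11 fell (8 and 7 with upper-quartile scaling), where 33.1% of all genes tested rose and 33.2% fell. The list includes Amot and Ptpn14, both described above and both among the 7 that rose. Log2 fold changes ran from -1.31 to 2.05, the latter that of Map4k1, with 8 to 17 counts in wild-type libraries. Stk3, which encodes MST2, fell from 92.6, 95.9 and 76.7 CPM to 65.2, 73.3 and 71.6 CPM (log2 fold change -0.34, SE 0.0686). Stk4, which encodes MST1, had 56.0, 54.3 and 57.5 CPM in wild-type and 55.2, 55.0 and 57.0 CPM in the knock-out, with a log2 fold change of -0.005 (SE 0.0727, edgeR adjusted p = 0.958). Of the LATS cofactors, Mob1b fell by 0.38 (SE 0.0581) and Mob1a by 0.13 (SE 0.0389) on the log2 scale, the latter turning to 0.03 with upper-quartile scaling. Sav1, the MST scaffold, had -0.16 (SE 0.0571, edgeR adjusted p = 0.0127), a call that other scalings ended: -0.04 (edgeR adjusted p = 0.570) with library size alone and -0.0008 (edgeR adjusted p = 0.990) with upper-quartile scaling. The Sav1 call was also lost without wild-type replicate 1 (-0.12, edgeR adjusted p = 0.0926) or knock-out library sg1 (-0.14, edgeR adjusted p = 0.0519). Nf2 (merlin), which recruits LATS to the membrane, rose by 0.23 (SE 0.0606).

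The genes of this list with the smallest p all fell. Rassf1, a tumour suppressor gene whose product binds MST kinases, fell from 153, 149 and 141 CPM to 63.1, 57.3 and 58.0 CPM (log2 fold change -1.31, SE 0.0583). Map4k4, a kinase gene that can act on LATS in parallel to MST, fell from 313, 292 and 295 CPM to 171, 180 and 181 CPM (log2 fold change -0.76, SE 0.0432). Frmd6 (willin) and Taok1, an activator of MST, fell by 0.54 and 0.38 on the log2 scale.

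STRIPAK, the phosphatase complex that opposes MST kinases, had 13 of 15 listed genes tested. Of these 10 fell and 3 rose (10 falls became 7 with upper-quartile scaling), where 33.2% of all genes tested fell and 33.1% rose. The median log2 fold change of the list was -0.32. Strn4 and Strn3, which encode striatin scaffolds, had log2 fold changes of -0.75 (SE 0.0514) and -0.55 (SE 0.0465). Slmap, which encodes the subunit that docks the complex to MST kinases, rose from 90.9, 86.2 and 84.4 CPM to 138, 143 and 151 CPM (log2 fold change 0.72, SE 0.0546), and Stk24 (MST3) rose by 0.65 (SE 0.0453). Both Slmap and Stk24 lie on chromosome 14, whose median was 0.34.

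Among 10 tested genes of 14-3-3 proteins and YAP/TAZ degradation factors, 7 fell and 1 rose (5 and 2 with upper-quartile scaling). The shares among all genes tested were 33.2% and 33.1%. Csnk1e, which encodes casein kinase 1 epsilon that acts in the degradation of YAP, fell from 186, 199 and 194 CPM to 77.6, 71.7 and 76.4 CPM (log2 fold change -1.36, SE 0.0527). Fbxw11, an F-box gene of the same step, fell by 0.60 (SE 0.0546). Csnk1d (0.05, edgeR adjusted p = 0.419) and Btrc (-0.17, edgeR adjusted p = 0.192), also degradation factors, did not pass the threshold. Ywhag and Ywhah, the 14-3-3 gamma and eta genes, fell too, with log2 fold changes of -0.77 (SE 0.0335) and -0.67 (SE 0.0457). Ywhaq, another 14-3-3 gene, was the 1 that rose (0.38, SE 0.0443).

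Of 16 tested polarity and junction regulators, 7 rose and 6 fell (8 and 2 with upper-quartile scaling, 5 and 5 with the stricter filter). Among all genes tested 33.1% rose and 33.2% fell. Log2 fold changes ran from -1.01 to 2.73, the latter that of Dchs1, with 0 to 5 wild-type and 10 to 17 knock-out counts per library. Pard3, a polarity scaffold gene on chromosome 8, fell from 134, 125 and 120 CPM to 61.1, 62.4 and 64.7 CPM (log2 fold change -1.01, SE 0.0596) and Mpp5 (PALS1) by 0.78 (SE 0.0911). Dlg5, a scaffold gene on chromosome 14, rose by 0.82 (SE 0.0699) on the log2 scale. Vgll4, whose product competes with YAP for TEAD, was the tested one of 4 Vestigial-like genes and rose by 0.48 (SE 0.108), from 20.9, 21.7 and 20.6 CPM to 27.6, 31.5 and 28.7 CPM.

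**Figure D5:**
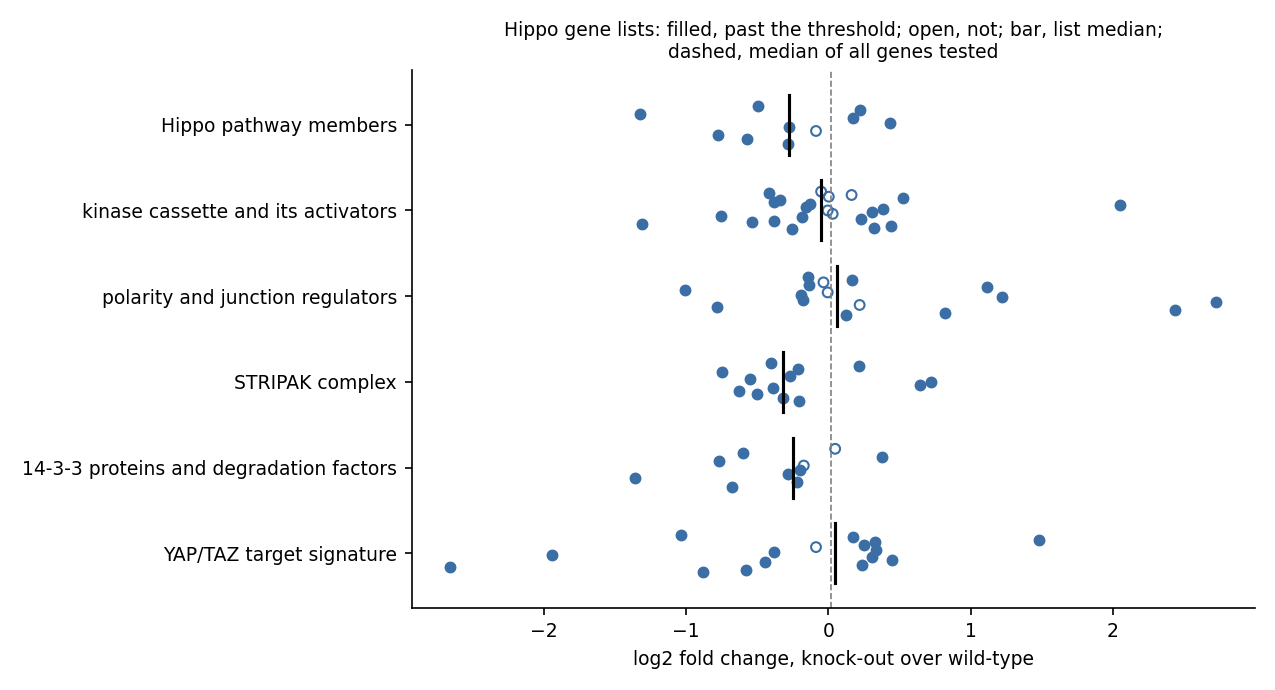
Log2 fold change (knock-out over wild-type, horizontal axis) of every tested gene of 6 Hippo lists; filled points passed the threshold, open points did not, black bars are list medians and the dashed line is the median of all genes tested. The medians of the members (-0.28), the STRIPAK list (-0.32), the 14-3-3 and degradation list (-0.25) and, by less, the kinase list (-0.05) lie left of the dashed line, and each list holds genes on both sides of 0.

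By the distance between centred log2 CPM over the 6 libraries, the genes nearest to Yap1 among 13012 compared were Naa38 (0.0441), Ccnd1 (0.0507) and Tmem63b (0.0582). Those nearest to Wwtr1 were Dpysl3 (0.0404), Mapk6 (0.0418) and Slc7a6 (0.0454). Many genes were close by this measure: 4349 lay within 0.5 of Yap1 and 2176 within 0.5 of Wwtr1. A short distance here mostly reflects a similar change between genotypes, and shared regulation was not tested.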

How the data were processed

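Values are raw read counts per Ensembl gene in 1 table, as deposited by the authors. Per the submitters' processing notes, fastp, STAR and HTSeq were among the tools and mm10 was the build; the annotation, versions and strand setting of the counting are not stated in these sources. Per the labels' protocols, RNA libraries were strand-specific, and all 6 carry the same batch label. Every row is above 0 in at least 3 libraries. Column names gave the sample of each wild-type library. Those of the knock-out have numbers the labels do not explain and were assigned to the group alone.

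Symbols were found for 17650 of 17718 identifiers. Genes passing edgeR's filterByExpr (minimum count 10, minimum total 15) were scaled with TMM and tested by quasi-likelihood in edgeR 4.0.16 under R 4.3.3 (alternatives used DESeq2 1.42.0 and limma 3.58.1), with adjustment over all 13013 genes. SE values were derived from the F statistic. The step was tested on simulated counts for these 13013 genes. It recovered 20 of 50 genes changed by 1.25-fold, 36 of 50 by 1.5-fold and 46 of 50 by 2-fold. It called 6 of 12813 unchanged genes. Few genes were changed there, evenly up and down, while 66.2% of genes tested were called in the real data. The simulation therefore does not check the scaling or the false calls in these data. Positions were taken from RefSeq (GRCm38.p6) by symbol. Replicate libraries differed by 2.13 to 3.13 times the counting variance (median over genes), so none were merged. Nothing states that they were separate cultures, so p-values cover only their own spread, perhaps a technical one.

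The members, lists and the naming rule were chosen with earlier results of these data known. The rule names the members, Kmt2c, each tested target gene, 6 core cassette genes and the 4 smallest p of each other list, 48 genes in all, of which 1 is not reported here, plus the 3 nearest genes of Yap1 and of Wwtr1 (distances on log2 of CPM plus 0.5). Amot, Pcmt1, Map4k1, Dchs1, Csnk1d, Btrc, Ywhaq and the markers were named after their values were seen, and the ratios and the 5 Mb windows were chosen then too.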

Additional observations from a re-analysis of the deposited data

How the results depend on the processing

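Over 15 alternative settings (other scalings, filters and tools, a 1.5-fold null, each library left out, chromosome medians removed), Wwtr1, Tead1, Tead2, Lats1, Amotl1 and Yap1 kept their direction in each. Tead3 (-0.39 to -0.12) and Tead4 (-0.37 to -0.12) also kept theirs, but their calls were lost in some settings. Against a 1.5-fold change, edgeR's glmTreat called 1448 genes higher and 1154 lower in place of 4301 and 4320, 0 members higher (0 also at an unadjusted p under 0.05; DESeq2 and limma voom called 3 against no change) and 2 lower, and 1 target higher and 3 lower. With chromosome medians removed, 5 targets were higher and 9 lower in place of 8 and 7, 2 members higher and 8 lower in place of 3 and 6, and Lats2 (-0.17), Ccn2 (-0.028) and Dock5 (-0.10) turned negative. The median of all genes went from 0.02 to 0.17 (upper-quartile scaling) or 0.14 (scaling by library size), and the higher share of calls went from 49.9% to 63.7% and 60.5%; with them Amotl2 was 0.070 and 0.034 and Stk4 0.15 and 0.12, and Mob1a was 0.028 with the former. Stk4 was also positive with the stricter filter (0.0295), and ranged from -0.0299 to 0.0023 with each wild-type library left out (lowest without a knock-out library -0.0326). With upper-quartile scaling the kinase list had 7 falls in place of 11 and the polarity list 2 in place of 6. Each library left out in turn gave 3902 to 4295 genes higher and 4083 to 4422 lower, 3 members higher and 5 to 6 lower, and 7 to 8 targets higher and 6 to 7 lower. Comparing levels between genes per length was not run, since no exon lengths or proteins were at hand. No paired analysis was possible because the knock-out columns carry no replicate number of the labels. Depth limits Tead3 and Tead4 (253 to 435 counts per library) and, in knock-out libraries, Lats1 (323 to 397).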
